A study of Mus musculus with 7 samples.

Results

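Mouse induced pluripotent stem cells (iPSC) were set against embryonic stem cells (ESC) across all measured genes, each as 1 RNA-seq library of 7 in the series. A gene entered the comparison where it reached 2 RPKM (reads divided by exon length in kilobases and by library depth) in iPSC or ESC, which held for 15749 of 29686 genes with a value. The iPSC library carries the strain label A12 (Mbd3 flox/-), and its note on feeder cells ends in question marks. The ESC library is the v6.5 line, a widely used mouse ESC line, and is noted as grown with fibroblast feeders. The library of mouse embryonic fibroblasts (MEF), which also carries the strain label A12 (Mbd3 flox/-), served to set apart feeder-type genes. The other 4 libraries come from a conversion of fibroblasts to neural stem cells (NSC) with the factors Oct4, Sox2, Klf4 and Myc (OSKM). They are day 6 cells sorted for tdTomato and 2 OSKM NSC libraries, 1 with and 1 without Tomato (all 3 B6/129 with Rosa26-TdTomato and Col1a-OSKM), and primary brain NSC of strain BDF2 from E12.5 embryos. Strain and cell type differ together between iPSC and ESC and cannot be told apart, and the number of iPSC clones is not given in the sources used here.

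Reprogramming returns somatic cells to a state in which they hold themselves undifferentiated with the same core factors as embryonic stem cells, chiefly Oct4, Sox2 and Nanog. Mouse lines of either origin are held in the naive state by LIF acting through Stat3 and by Bmp acting through Id proteins, while Fgf and Nodal signals accompany the passage towards the primed epiblast. Lines differ from one another in imprinted genes, in the share of cells that pass through a state like that of the two-cell embryo, and in how many feeder cells are harvested with them.

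Recovered depth was 58 megareads in iPSC and 41 megareads in ESC, and between 19 and 46 megareads in the other 5 libraries. Genes at 2 RPKM or more numbered 14404 in iPSC and 15083 in ESC. Pou5f1, Sox2 and Nanog were high in both pluripotent libraries, and the Y-linked gene Eif2s3y stood at 90.9 RPKM in iPSC, 102.6 RPKM in ESC and 114 RPKM in MEF. With 1 library per group no difference has a replicate check, and no p-value is given. Counting intervals, where given, are 95% Clopper-Pearson intervals on recovered reads and cover counting error only.

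Across all 15749 genes, 203 (1.29%) passed 4-fold upward in iPSC and 691 (4.39%) passed it downward, on the scale log2((iPSC + 1)/(ESC + 1)). At 2-fold, 1219 genes (7.74%) were higher and 2289 (14.5%) lower, and the median log2 ratio was -0.18. Genes high in MEF made up much of the lower side. A gene was called MEF-high where its log2 level in MEF was at least 2 above the mean of its log2 levels in iPSC and ESC, which held for 1252 genes. Of these MEF-high genes 15 (1.2%) passed 4-fold upward and 313 (25.0%) downward, with a median log2 ratio of -1.09. Among the 14497 genes not high in MEF, 188 (1.3%) passed 4-fold upward and 378 (2.61%) downward, with a median of -0.14. The definition uses iPSC and ESC in equal parts, so these counts describe a division that is not independent of the values. Just inside it lay Per3, with 1.62 RPKM in iPSC, 2.07 in ESC and 10.4 in MEF, and just outside it Slpi, with 0 in iPSC, 4.12 in ESC and 8.04 in MEF.

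The split of higher and lower calls moved with the scaling. With iPSC and ESC scaled to equal totals, the median log2 ratio of all genes moved from -0.18 to 0.10. Then 298 genes were higher and 568 lower, so that 34.4% of calls were higher, against 22.7% as deposited. For genes not high in MEF, 49.0% of calls were higher after that scaling, against 33.2% as deposited. Ratios below are as deposited.

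**Figure D1:**
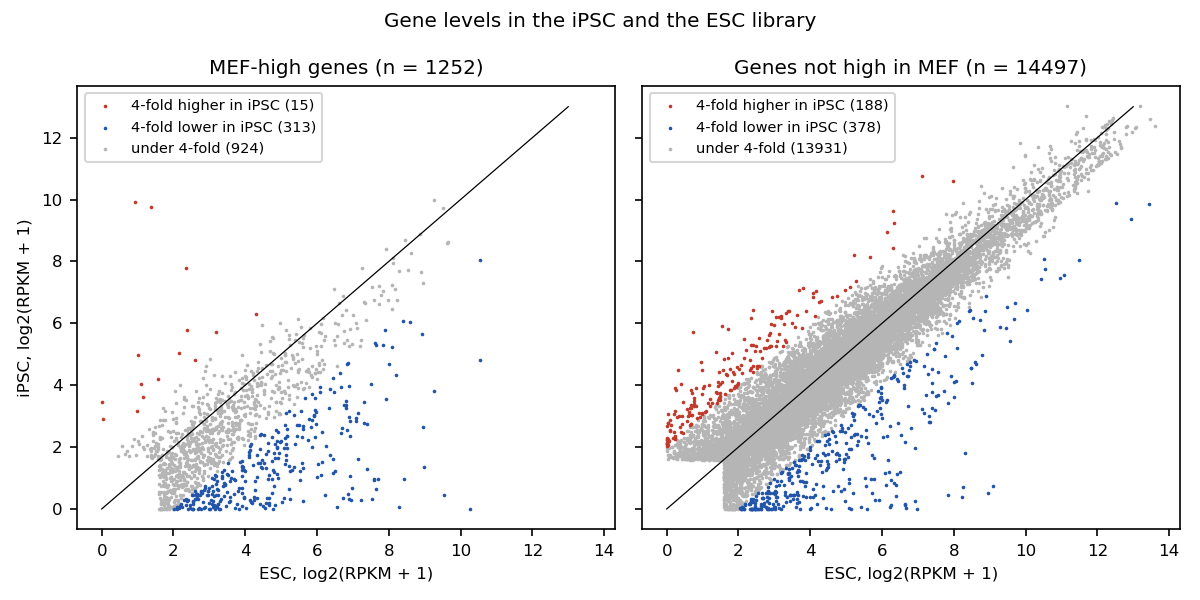
Level of each gene in iPSC (y axis) against ESC (x axis), both as log2(RPKM + 1), 1 point per gene, for MEF-high genes (left) and genes not high in MEF (right); the line marks equal levels. MEF-high genes lie mostly under the line (15 higher, 313 lower at 4-fold), and the other genes scatter to both sides (188 higher, 378 lower).

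The core pluripotency factors differed by less than 2-fold between the lines. Nanog, which stabilises the naive state, stood at 772 RPKM in iPSC and 765 RPKM in ESC. Pou5f1, the gene of Oct4, reached 2067 RPKM in iPSC and 1410 RPKM in ESC, and Sox2 reached 252 RPKM in iPSC and 183 RPKM in ESC. Esrrb, a nuclear receptor of the naive network, stood at 313 RPKM in iPSC and 216 RPKM in ESC. These 4 genes had log2 ratios between 0.01 and 0.55. In MEF none of the 4 exceeded 2.92 RPKM.

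Around this core some naive genes differed by 2-fold or more. Of 19 naive pluripotency genes, all tested, 4 passed 2-fold upward in iPSC and 3 downward. Of all tested genes 7.74% were higher and 14.5% lower, and the lower count of the list was near that share. The list median was 0.63 against -0.18 over all genes tested. The highest log2 ratio of the list was 2.40, and 1 member passed 4-fold upward. Nr0b1, an orphan receptor that binds Oct4, was higher by less than 4-fold, with 95.8 RPKM in iPSC and 30.3 RPKM in ESC. Zfp42, the gene of the marker Rex1, had 617 RPKM in iPSC and 238 RPKM in ESC. Klf2 passed 2-fold narrowly, with 109 RPKM in iPSC and 51.6 RPKM in ESC.

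On the lower side stood Dppa3 (Stella), a maternal factor that protects methylation in the zygote and is expressed in a fraction of naive cells. Dppa3 had 4.08 RPKM in iPSC and 41.6 RPKM in ESC, a ratio of 0.0981 (counting interval 0.0845 to 0.113). Fbxo15, an early Oct4 target, was lower too, with 358 RPKM in iPSC and 797 RPKM in ESC. Fgf4, the autocrine signal that drives exit from the naive state, had 94.3 RPKM in iPSC and 205 RPKM in ESC. With ratios centred on GC content, 1 of these 3, Dppa3, stayed past 2-fold.

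Among 21 tested genes of general pluripotency, 5 passed 2-fold upward in iPSC and 1 downward, beside 7.74% and 14.5% of all tested genes. Utf1, a chromatin factor of undifferentiated cells, had 75.1 RPKM in iPSC and 16.5 RPKM in ESC. Dppa2 had 62.4 RPKM in iPSC and 16.4 RPKM in ESC, and its partner Dppa4 had 113 RPKM in iPSC and 84.0 RPKM in ESC. L1td1, an RNA-binding protein derived from a transposon, had 232 RPKM in iPSC and 63.1 RPKM in ESC. Foxd3 and Zscan10 were also higher, at 8.76 and 99.7 RPKM in iPSC against 2.14 and 33.2 RPKM in ESC. Dppa5a, an abundant marker of the naive state, was the lower member, with 2867 RPKM in iPSC and 5932 RPKM in ESC. When centred on GC content, 4 genes of the list were higher and 0 lower.

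Nodal and its feedback inhibitors were higher in iPSC. Nodal, a ligand of the Tgf-beta family, had 115 RPKM in iPSC and 23.4 RPKM in ESC, a ratio of 4.92 (counting interval 4.70 to 5.16). Lefty1, a secreted inhibitor induced by Nodal, had 55.1 RPKM in iPSC and 2.27 RPKM in ESC, a ratio of 24.2 (20.6 to 28.7). Lefty2 had 140.5 RPKM in iPSC, 12.8 RPKM in ESC and 50.3 RPKM in day 6 cells, and was at 0 in the 3 NSC libraries. Lefty1 and Lefty2 lie side by side, at chr1:180935022-180938400 and chr1:180893108-180899103 (mm10).

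Further down the pathway, Smad7, an inhibitory Smad shared with Bmp signalling, had 48.5 RPKM in iPSC and 14.9 RPKM in ESC. Pmepa1, another feedback inhibitor, had 22.9 RPKM in iPSC and 10.1 RPKM in ESC. The receptors named in the list did not pass 2-fold. Acvr1b stood at 36.1 RPKM in iPSC and 33.9 RPKM in ESC, and the co-receptor Tdgf1 (Cripto) at 343 RPKM in iPSC and 309 RPKM in ESC. In all, 6 of 15 genes of the pathway were at least 2-fold higher in iPSC and 0 lower, with a median of 0.42. The 6 and 0 held under both other scalings and after centring on GC content, and 4 of the 6 remained with a pseudocount of 4 RPKM.

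**Figure D2:**
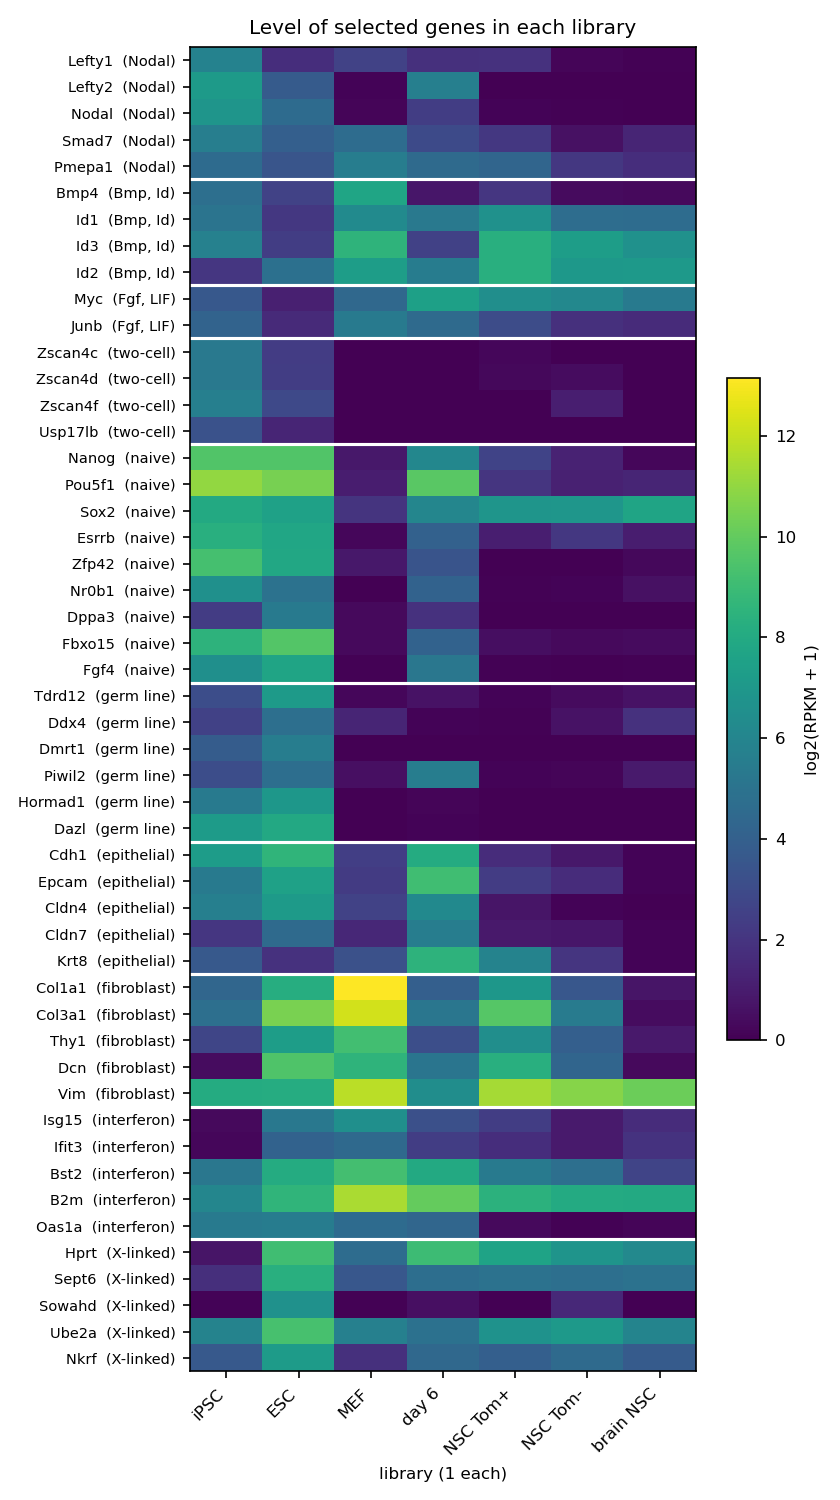
Level of selected genes, 1 row per gene with its group in brackets, in each of the 7 libraries (columns, 1 library each), coloured by log2(RPKM + 1). Nodal genes and Zscan4 copies are brighter in iPSC than in ESC, fibroblast and interferon genes other than Vim and Oas1a are darker in iPSC, and Hprt is near 0 in iPSC only.

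Genes of the Bmp and LIF lists passed 2-fold in both directions between iPSC and ESC, and those of the Fgf list upward only. Counts in these lists stand beside 7.74% of all tested genes higher in iPSC and 14.5% lower. Id1 and Id3, inhibitors of basic helix-loop-helix factors and direct Bmp targets, had 31.8 and 54.2 RPKM in iPSC, against 3.42 and 4.2 RPKM in ESC. Id2 went the other way, with 3.26 RPKM in iPSC and 27.7 RPKM in ESC. The ligand Bmp4 had 26.9 RPKM in iPSC and 5.03 RPKM in ESC. Msx2, a homeobox target of Bmp, had 4.58 RPKM in iPSC and 0.60 RPKM in ESC. In total 5 of 13 genes of this list passed 2-fold upward and 2 downward, the lower count near the share of all tested genes. Outside the MEF-high class 2 were higher and 0 lower. MEF-high genes make up 6 of the 13, Id1, Id3, Bmp4 and Id2 among them, with 78.2, 368, 212 and 160 RPKM in MEF, and the part of fibroblasts in these values was not tested.

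Of 16 tested immediate targets of Fgf and Erk, 6 were at least 2-fold higher in iPSC and 0 lower, with a median of 0.72. Myc had 11.3 RPKM in iPSC and 1.22 RPKM in ESC, which was the lowest Myc level of the 7 libraries. Dusp6, a phosphatase that limits Erk, had 23.1 RPKM in iPSC and 6.28 RPKM in ESC, and Spry4, a feedback inhibitor, had 7.91 RPKM in iPSC and 1.93 RPKM in ESC. The factors Etv4 and Etv1 and the receptor Epha2 made up the 6, of which Myc is MEF-high with 21.1 RPKM in MEF.

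Of 12 LIF and Stat3 targets, 4 were at least 2-fold higher in iPSC and 1 lower. Of the 4 higher targets, 3 are not high in MEF. Junb, an AP-1 subunit, had 17.4 RPKM in iPSC and 1.96 RPKM in ESC, and Gbx2, a homeobox factor, had 15.4 RPKM in iPSC and 3.32 RPKM in ESC. Pim1, a kinase downstream of Stat3, was the lower member, with 40.9 RPKM in iPSC and 138 RPKM in ESC. Socs3, the feedback inhibitor of the same pathway, stood at 73.0 RPKM in iPSC and 81.8 RPKM in ESC. Junb was joined by Ier2 among 12 immediate early and heat shock genes, of which 4 were higher and 0 lower. Of these 4 higher genes, 3 are not high in MEF. Ier2 had 113 RPKM in iPSC and 15.8 RPKM in ESC, while Fos stood at 10.2 RPKM in iPSC and 8.69 RPKM in ESC.

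Most tested genes of the two-cell-like state were higher in iPSC, and most of these belong to families of copies. This state marks rare cells of a culture that switch on the Zscan4 cluster, which acts in telomere upkeep, together with other genes of the two-cell embryo. Zscan4c had 38.6 RPKM in iPSC and 4.06 RPKM in ESC, a ratio of 9.50 (counting interval 8.73 to 10.9), and was at 0 in MEF. Zscan4d, Zscan4e and Zscan4f had 38.4, 37.3 and 50.1 RPKM in iPSC, against 4.25, 4.58 and 6.39 RPKM in ESC. Zscan4b had 28.2 RPKM in iPSC and 2.28 RPKM in ESC. The 5 tested members of the Usp17l family of deubiquitinases, and the unnamed models Gm4340 and Gm6763, were also at least 2-fold higher. In all, 12 of 16 tested genes of the list passed 2-fold upward and 0 downward, with a median of 1.71. All 12 are Zscan4 genes, Usp17l genes or the models Gm4340 and Gm6763. Copies of a family may share reads, so the 12 are not separate measurements. The other 4, Zfp809, Zfp750, Eif1a and Sp110, had log2 ratios between -0.40 and 0.27.

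The Zscan4 genes are near-identical copies, and reads cannot be assigned to a single copy with certainty. To show how alike they are, the RefSeq sequences (GRCm38.p6) upstream of the start site of 4 copies are given 5′ to 3′, with capitals marking the letters that differ from Zscan4c when the windows are set against each other without gaps.
Zscan4c: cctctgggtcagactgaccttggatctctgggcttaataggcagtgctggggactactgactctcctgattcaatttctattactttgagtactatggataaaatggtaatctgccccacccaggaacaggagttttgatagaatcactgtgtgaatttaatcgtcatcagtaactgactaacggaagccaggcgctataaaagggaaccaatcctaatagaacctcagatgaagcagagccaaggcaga
Zscan4f: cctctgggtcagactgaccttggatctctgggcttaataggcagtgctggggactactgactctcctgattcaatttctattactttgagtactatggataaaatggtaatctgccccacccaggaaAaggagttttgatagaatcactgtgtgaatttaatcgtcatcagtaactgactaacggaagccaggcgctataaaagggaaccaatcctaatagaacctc
Zscan4d: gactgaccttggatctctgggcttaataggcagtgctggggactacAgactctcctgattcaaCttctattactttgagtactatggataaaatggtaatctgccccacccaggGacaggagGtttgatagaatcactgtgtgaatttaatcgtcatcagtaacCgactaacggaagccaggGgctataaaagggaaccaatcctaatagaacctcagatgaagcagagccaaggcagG
Zscan4b: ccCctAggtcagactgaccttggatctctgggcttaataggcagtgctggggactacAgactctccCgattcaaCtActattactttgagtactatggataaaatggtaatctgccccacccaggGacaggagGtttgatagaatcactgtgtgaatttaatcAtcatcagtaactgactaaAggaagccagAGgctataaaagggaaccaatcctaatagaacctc
These stretches lie at chr7:11005495-11005744 on the plus strand, chr7:11397688-11397914 on the plus strand, chr7:11166160-11166398 on the minus strand and chr7:10905051-10905277 on the minus strand. Zscan4f differed from Zscan4c at 1 of 227 aligned letters, Zscan4d at 7 of 239 and Zscan4b at 12 of 227. All 7 tested genes of the 1000000-base window that starts at chr7:11000001, which holds Zscan4c to Zscan4f, were at least 4-fold higher in iPSC. So were 7 of 7 tested genes in the window that starts at chr10:104000001, which are all unnamed models and include Gm4340 and Gm6763.

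Most of the other genes with the highest ratios belong to no common list. Among genes not high in MEF, Islr2, a neuronal leucine-rich repeat receptor, led with 21.5 RPKM in iPSC and 0.25 RPKM in ESC, a log2 ratio of 4.17. Halr1, a non-coding RNA beside the Hoxa cluster at chr6:52102949-52113684 (mm10), had 84.9 RPKM in iPSC and 4.31 RPKM in ESC. Zfhx2, a zinc finger homeobox factor, had 32.7 RPKM in iPSC and 1.61 RPKM in ESC. Acsm4, an acyl-CoA synthetase, had 13.5 RPKM in iPSC and 0.19 RPKM in ESC, and did not exceed 0.0605 RPKM in the other 5 libraries. Tubb3, a beta-tubulin best known from neurons, had 84.2 RPKM in iPSC and 6.67 RPKM in ESC. Tcf19 had 134 RPKM in iPSC and 11.8 RPKM in ESC. Ier5l and Tpgs1 had 15.4 and 27.6 RPKM in iPSC, against 0.31 and 2.05 RPKM in ESC, and their exons have 63.9% and 65.3% GC, a range in which ratios were raised across genes.

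Wnt targets did not follow the leading member. Notum, a secreted inhibitor of Wnt, had 72.4 RPKM in iPSC and 7.73 RPKM in ESC. Axin2, the most general target of the pathway, stood at 5.90 RPKM in iPSC and 4.51 RPKM in ESC. Lgr5 and Lef1 were lower, at 0.04 and 0.62 RPKM in iPSC against 2.92 and 2.41 RPKM in ESC. Of 10 tested, 2 were at least 2-fold higher and 3 lower, beside 7.74% and 14.5% of all tested genes. When centred on GC content 1 was higher and 1 lower. Lgr5 is MEF-high.

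Several leading genes are processed pseudogenes or stand close to a near-identical copy, so that their values are uncertain. Ftl1-ps2 had the highest ratio of all, with 861 RPKM in iPSC and 1.59 RPKM in ESC. It also had 719 RPKM in MEF, and at most 0.394 RPKM in the other 4 libraries. Its parent Ftl1, the ferritin light chain, had 947 RPKM in iPSC, 5879 RPKM in ESC and 1784 RPKM in MEF. The pseudogenes Rpl36-ps2, Rpl36-ps3 and Rpl29-ps5 were likewise at least 4-fold higher, at 1735, 797 and 30.2 RPKM in iPSC against 137, 77.7 and 1.02 RPKM in ESC. Npn2, annotated as antisense, had 51.5 RPKM in iPSC and 8.13 RPKM in ESC, and without strand its reads cannot be told from those of the gene opposite.

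Neighbouring genes moved together at chr7:30000001-31000000 (mm10). Hcst, Nfkbid, Kirrel2 and Nphs1 were all at least 4-fold higher in iPSC, of 47 genes tested in that window. Nphs1 and Kirrel2, cell adhesion proteins of the kidney slit diaphragm, had 32.0 and 21.4 RPKM in iPSC, against 2.54 and 0.96 RPKM in ESC, and 11.8 and 9.37 RPKM in MEF. Hcst, a signalling adaptor of leukocytes, had 10.0 RPKM in iPSC and 0 in ESC, at least 42.1-fold higher when ESC is set at the level of 3 reads, and 21.6 RPKM in MEF. Nfkbid, an inhibitor of NF-kB, had 10.6 RPKM in iPSC, 1.68 RPKM in ESC and 11.4 RPKM in MEF. All 4 were at or below 1.74 RPKM in day 6 cells and the 3 NSC libraries, and 1 of the 4, Hcst, is MEF-high.

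Fibroblast genes were lower in iPSC as a class. Of 34 tested fibroblast and mesenchymal genes, 29 were at least 2-fold lower, 26 at least 4-fold lower and 0 higher, with a median of -3.56. Summed over the list, the level was 1222 RPKM in iPSC, 8946 RPKM in ESC and 65810 RPKM in MEF. Col1a1, a main fibrillar collagen, had 19 RPKM in iPSC, 291 RPKM in ESC and 9085 RPKM in MEF. Col3a1 had 26.9 RPKM in iPSC, 1477 RPKM in ESC and 4949 RPKM in MEF. Thy1, a surface marker of fibroblasts, had 5.80 RPKM in iPSC, 158 RPKM in ESC and 583 RPKM in MEF. The contractile and cytoskeletal genes Tagln and Vim did not follow, with log2 ratios of 0.22 and -0.02, and Vim stood at 274 RPKM in iPSC and 278 RPKM in ESC.

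Measured against MEF itself, 683 MEF-high genes at 50 RPKM or more in MEF had a median level of 5.15% of MEF in iPSC (quartiles 1.52% to 12.6%) and 14.9% in ESC (8.51% to 23.3%). ESC was above iPSC for 563 of the 683. In a bulk library, fewer cells of a type and less RNA per cell cannot be told apart. The secreted proteoglycans Dcn and Lum went beyond this, with 0.36 and 0.05 RPKM in iPSC, 741 and 308 RPKM in ESC, and 374 and 154 RPKM in MEF, so that ESC exceeded MEF. Saa3, an acute phase protein, had 0 in iPSC, 1230 RPKM in ESC and 972 RPKM in MEF. Set at the level of 3 reads, iPSC was at least 11900-fold lower for Saa3. Bgn and Postn, matrix proteins, had 1.58 and 0.96 RPKM in iPSC against 508 and 340 RPKM in ESC.

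Of the 378 lower genes outside the MEF-high class, 339 were above MEF in ESC and 205 at least 4-fold above it. The definition of the class limits how far MEF can lie above ESC in these genes. It thus favours this order but sets it only at the larger ratios. Of the same 378, 99 were at least 4-fold higher in MEF than in iPSC. Mmp3, a matrix protease, had 0.30 RPKM in iPSC, 297 RPKM in ESC and 9.88 RPKM in MEF. The chemokine genes Ccl8 and Ccl11 had 0.37 and 0 RPKM in iPSC, 227 and 126 RPKM in ESC, and 1.52 and 0.55 RPKM in MEF. Reg3g, an antibacterial lectin, had 0.02 RPKM in iPSC, 100.3 RPKM in ESC and 1.84 RPKM in MEF. Dpt, Prelp, Cxcl5, Ubd and Ms4a4d, also among the lowest 15, had at most 0.34 RPKM in iPSC and between 41.6 and 119.5 RPKM in ESC. In MEF they stood, in this order, at 14.8, 33.6, 5.05, 0 and 22.7 RPKM. Prelp and Ms4a4d lay not far under the MEF-high cutoff of 2, with log2 gaps of 1.97 and 1.84. Ccl11 and Ubd were at 0 in iPSC, at least 2640-fold and 844-fold lower when iPSC is set at the level of 3 reads.

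**Figure D3:**
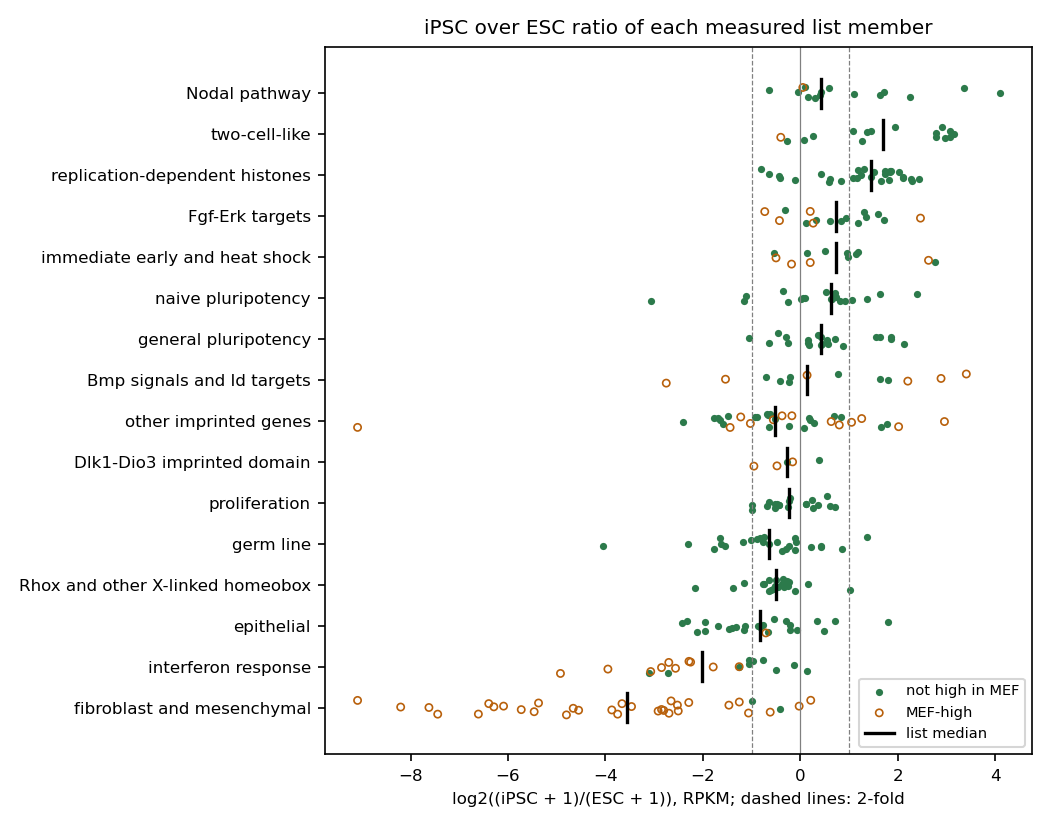
Log2 ratio of iPSC over ESC (x axis, 1 RPKM added) for each tested member of 16 gene lists (rows), filled points not high in MEF, open points MEF-high, black bars list medians, dashed lines 2-fold. The fibroblast (median -3.56) and interferon (-2.02) lists lie to the left, the two-cell-like (1.71) and histone (1.44) lists to the right.

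Of 20 tested interferon-stimulated genes, 15 were at least 2-fold lower in iPSC and 0 at least 2-fold higher, with a median of -2.02. Isg15, a ubiquitin-like modifier, had 0.25 RPKM in iPSC, 36.9 RPKM in ESC and 91.6 RPKM in MEF. Ifit3 and Ifit1, which bind viral RNA, had 0.16 and 0.01 RPKM in iPSC, 16.9 and 7.68 RPKM in ESC, and 21.2 and 9.01 RPKM in MEF. Bst2, a tether of virus particles, had 36.5 RPKM in iPSC, 269 RPKM in ESC and 593 RPKM in MEF. B2m, the light chain of class I histocompatibility proteins, had 64.4 RPKM in iPSC, 385 RPKM in ESC and 2822 RPKM in MEF. Irf9, a transducer of the interferon receptor, did not pass 2-fold and stood at 17.3 RPKM in iPSC and 15.7 RPKM in ESC. MEF-high genes make up 10 of the 20, and the list sums to 1116 RPKM in iPSC, 2843 RPKM in ESC and 6285 RPKM in MEF. Of the 15 lower genes, 5 are not high in MEF. The part of feeder cells in this difference was not tested.

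The element that interferon-activated factors bind is GAAANNGAAA, read on either strand, where N is any base. It was searched for in RefSeq promoter windows (GRCm38.p6, from 250 bases before the start site to 50 after), where 15 of the 20 genes had a window. Matches stood in 8 of these 15, against 3.99% of 27025 genes with a window, and in 5 of the 11 windowed genes that were at least 2-fold lower. The upstream stretches of the lowest 3 members are shown 5′ to 3′ on the strand of the gene, with each match in capitals.
Isg15: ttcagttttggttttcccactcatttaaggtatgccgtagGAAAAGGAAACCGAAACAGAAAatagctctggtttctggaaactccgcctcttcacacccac
Ifit3: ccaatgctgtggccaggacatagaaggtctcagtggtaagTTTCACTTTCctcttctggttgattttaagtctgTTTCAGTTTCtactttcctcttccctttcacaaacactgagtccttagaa
Ifit1: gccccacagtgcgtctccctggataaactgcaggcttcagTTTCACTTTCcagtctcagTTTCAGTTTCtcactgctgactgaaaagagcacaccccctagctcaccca
The stretches lie at chr4:156200835-156200936 on the minus strand, chr19:34583333-34583456 on the plus strand and chr19:34640745-34640853 on the plus strand. Isg15 holds 3 matches, which overlap in 1 run, and Ifit3 and Ifit1 hold 2 each. Matches also stood in 3 of the 4 windowed genes that were not 2-fold lower, among which Oas1a stood at 40.7 RPKM in iPSC and 44.6 RPKM in ESC. Oasl2 and Irf7 have no match in their windows and were lower, at 0.12 and 0.24 RPKM in iPSC against 8.41 and 5.05 RPKM in ESC.

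Clusters of immune genes fell together. In the window that starts at chr1:173000001, 7 of 8 tested genes were at least 4-fold lower in iPSC, all 7 of the Ifi200 family of nuclear DNA sensors and 5 of them MEF-high. Mndal and Ifi211 had 0.24 and 0.23 RPKM in iPSC, 184 and 149 RPKM in ESC, and 101 and 64.2 RPKM in MEF. At chr12:104000001-105000000, 14 of 17 genes were at least 4-fold lower, all Serpina3 protease inhibitors. Of the 14, 4 are MEF-high, and the others lay not far under the cutoff of 2. Their log2 levels in MEF were between 1.63 (Serpina3m) and 1.98 (Serpina3f) above the mean of iPSC and ESC. Serpina3n had 16.6 RPKM in iPSC, 266 RPKM in ESC and 222 RPKM in MEF. In the histocompatibility region, 11 of 59 genes in the window that starts at chr17:35000001 and 20 of 35 in the next were at least 4-fold lower. All 11 in the first window and 9 of the 20 in the next are MEF-high. H2-D1 had 20.0 RPKM in iPSC, 98.7 RPKM in ESC and 428 RPKM in MEF. In these families copies share sequence, so single values are uncertain.

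Detoxifying enzymes formed a further set of neighbours that was at least 4-fold lower in iPSC. In the window that starts at chr1:88000001, 12 of 21 tested records were lower, 9 of them Ugt1a glucuronosyltransferases, which share exons. With shared exons left out, 6 of the 9 were no longer at least 4-fold lower, and the log2 ratios of Ugt1a8, Ugt1a9 and Ugt1a10 were -0.43, -0.04 and 0. In the window that starts at chr3:107000001, 9 of 16 genes were lower, 4 of them glutathione transferases of the Gstm family, and Gstm1 and Gstm4 in the next window were lower too. Gstm2 had 25.6 RPKM in iPSC, 384 RPKM in ESC and 127 RPKM in MEF, and Gstm1 had 35.9 RPKM in iPSC, 272 RPKM in ESC and 77.0 RPKM in MEF. Neither is MEF-high. Gsta2, on another chromosome, had 24.6 RPKM in iPSC and 391 RPKM in ESC. In the window at chr8:104000001-105000000, 8 of 17 records were lower, 6 of them Ces2 carboxylesterases, and Ces2e had 1.85 RPKM in iPSC and 10.6 RPKM in ESC.

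Epithelial genes leaned lower in iPSC, and 1 of the 25 tested is MEF-high. Of the 25, 11 were at least 2-fold lower and 1 higher, all 11 not high in MEF, with a median of -0.84. Cdh1 (E-cadherin), the adhesion protein of stem cell colonies, had 156 RPKM in iPSC, 391 RPKM in ESC and 4.46 RPKM in MEF. Epcam, another surface adhesion protein, had 40.5 RPKM in iPSC and 181 RPKM in ESC. The tight junction genes Cldn4 and Cldn7 had 50.1 and 3.24 RPKM in iPSC, against 140 and 22.0 RPKM in ESC. Esrp1, an epithelial splicing factor, had 0.28 RPKM in iPSC and 5.4 RPKM in ESC. Krt8, a keratin of simple epithelia, was the member that was higher, with 11.7 RPKM in iPSC and 2.62 RPKM in ESC. Its partner Krt18 stood at 12.1 RPKM in iPSC and 8.42 RPKM in ESC.

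Germ line genes, many of which naive cells transcribe at low level, leaned lower. Of 25, all tested, 8 were at least 2-fold lower in iPSC, beside 14.5% of all tested genes, and 1, Zfp42, higher. The list median was -0.63. When centred on GC content, 6 were lower and 2 higher, with a median of -0.31. Tdrd12, a Tudor protein of the piRNA pathway, had 7.58 RPKM in iPSC and 142 RPKM in ESC, a ratio of 0.0534. Ddx4 (Vasa), an RNA helicase of germ cells, had 4.76 RPKM in iPSC and 27.3 RPKM in ESC. Dmrt1 and Piwil2 had 13 and 7.71 RPKM in iPSC, against 46.9 and 26.2 RPKM in ESC. Hormad1, a protein of the meiotic axis, had 41.1 RPKM in iPSC and 122 RPKM in ESC. Dazl, a translational regulator of germ cells, did not pass 2-fold, with 146 RPKM in iPSC and 246 RPKM in ESC. No member of the list is MEF-high.

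Of 23 tested genes of the X-linked Rhox homeobox cluster, 3 passed 2-fold downward, beside 14.5% of all tested genes, and 1, Rhox13, upward. When centred on GC content, 2 were 2-fold lower and 0 higher. A log2 ratio below 0 was found for 21 of the 23, and for 73.8% of chromosome X genes not high in MEF. Rhox5, the most abundant member, had 270 RPKM in iPSC and 710 RPKM in ESC. Rhox4f had 2.44 RPKM in iPSC and 14.4 RPKM in ESC. The median of the list was -0.49, against -0.40 for chromosome X genes not high in MEF.

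Imprinted genes, which are expressed from the copy of a single parent and are known to vary between pluripotent lines, moved both ways. The Dlk1-Dio3 domain, whose maternal non-coding RNAs have been used to grade mouse iPSC lines, had 5 tested genes, of which Meg3, Rian and Mirg are MEF-high. Meg3 had 19.5 RPKM in iPSC, 27.6 RPKM in ESC and 370 RPKM in MEF. Rian had 22.2 RPKM in iPSC, 43.9 RPKM in ESC and 179 RPKM in MEF, and Mirg had 6.49 RPKM in iPSC, 7.35 RPKM in ESC and 32.8 RPKM in MEF, and the part of fibroblasts in these levels was not tested. The paternally expressed Dlk1 was under the floor, at 0.54 RPKM in iPSC and 0.26 RPKM in ESC. None of the 5 tested genes of the domain passed 2-fold. By the highest single exon of each gene, 1 was at least 2-fold lower.

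Of 35 other imprinted genes tested, 6 were at least 2-fold higher in iPSC and 10 lower, beside 7.74% and 14.5% of all tested genes. Of the 6 higher genes 2 are not high in MEF, and of the 10 lower genes 6 are not. Mest, a paternally expressed hydrolase, had 78.5 RPKM in iPSC, 18.6 RPKM in ESC and 469 RPKM in MEF. Nnat, a small membrane proteolipid, had 15.5 RPKM in iPSC and 1.12 RPKM in ESC. Peg10 and Zdbf2, both paternally expressed, had 51.6 and 19.4 RPKM in iPSC, against 15.8 and 4.94 RPKM in ESC. On the lower side, Grb10, an adaptor that restrains growth signalling, had 30.7 RPKM in iPSC and 108 RPKM in ESC. Phlda2 and Slc22a18, from the Kcnq1 domain, had 1.46 and 1.00 RPKM in iPSC, against 5.86 and 9.66 RPKM in ESC. The X-linked Xlr3b, Xlr4b and Xlr4c had 495, 557 and 450 RPKM in iPSC, against 1487, 1742 and 1442 RPKM in ESC, and are close copies.

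H19, a maternal non-coding RNA, had 106.5 RPKM in iPSC and 249.9 RPKM in ESC. Its neighbour Igf2, the paternal growth factor, had 53.8 RPKM in iPSC and 34.3 RPKM in ESC. In MEF these 2 genes stood at 18100 and 3008 RPKM. Of the 35, 13 are MEF-high, and Dcn, described above, accounts for the lowest ratio of the list.

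Chromatin regulators were set beside all tested genes, of which 7.74% were at least 2-fold higher in iPSC and 14.5% lower. Mbd3, a subunit of the NuRD complex that carries the engineered alleles in the iPSC strain, had 68.4 RPKM in iPSC, 73.6 RPKM in ESC and 65.3 RPKM in MEF. Each of its 15 exon records was above 0 in iPSC, from 5.59 to 261 RPKM. Its log2 ratio was -0.10 as measured and -0.88 when centred on GC content. Of 15 NuRD genes, 1 was at least 2-fold higher and 2 lower, near the shares of all tested genes. Hdac1, a histone deacetylase of the complex, had 35.8 RPKM in iPSC and 85.9 RPKM in ESC, and Chd3 had 7.47 RPKM in iPSC and 18.6 RPKM in ESC. Zfp219 had 68.9 RPKM in iPSC and 23.4 RPKM in ESC, a log2 ratio of 1.52 that fell under 2-fold, to 0.74, when centred on GC content.

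For DNA methylation and demethylation, Tet2, an enzyme that oxidises methylcytosine, was the single gene of 12 past 2-fold, with 38.6 RPKM in iPSC and 11 RPKM in ESC. The maintenance enzyme Dnmt1 stood at 202 RPKM in iPSC and 185 RPKM in ESC. Of 18 Polycomb genes, Pcgf2 passed 2-fold upward and Ezh1 downward. Pcgf2 had 104 RPKM in iPSC and 48.2 RPKM in ESC, and Ezh1 had 9.16 RPKM in iPSC and 22.9 RPKM in ESC. The catalytic subunit Ezh2 stood at 153 RPKM in iPSC and 245 RPKM in ESC.

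Proliferation and metabolic genes were counted at 2-fold, beside 7.74% of all tested genes higher and 14.5% lower. None of 20 proliferation genes passed 2-fold in either direction, and Mki67 stood at 43.4 RPKM in iPSC and 60.7 RPKM in ESC. Of 19 glycolysis genes, 0 were at least 2-fold higher and 1 lower, Pgk1, with 138 RPKM in iPSC and 289 RPKM in ESC. Tdh, the threonine dehydrogenase on which mouse naive cells rely, had 664 RPKM in iPSC and 401 RPKM in ESC. Shmt2, the mitochondrial serine hydroxymethyltransferase, had 434 RPKM in iPSC and 149 RPKM in ESC, and with Mat2a made 2 of 15 serine, glycine and threonine genes higher and 0 lower. Of 24 Atf4 targets, 6 were higher and 3 lower. Chac1, which degrades glutathione, had 65.0 RPKM in iPSC and 18.7 RPKM in ESC, and Ddit3 (Chop) had 61.1 RPKM in iPSC and 160 RPKM in ESC.

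Genes of p53 and of differentiation were counted in the same way. Of 21 p53 targets and Cdk inhibitors, 3 passed 2-fold upward and 1 downward, and when centred on GC content 1 was higher and 2 lower. Trp53 itself had 428 RPKM in iPSC and 180 RPKM in ESC, while Fas, a death receptor that is MEF-high, had 1.54 RPKM in iPSC, 14.4 RPKM in ESC and 49.4 RPKM in MEF. Of 24 primed epiblast and germ layer genes 9 were tested, of which 3 passed 2-fold upward and 2 downward; 1 of the 3 kept its call when centred on GC content. Cdx1, a caudal homeobox factor, had 24.0 RPKM in iPSC and 9.80 RPKM in ESC, and Otx2, an epiblast factor, stood at 7.19 RPKM in iPSC and 6.49 RPKM in ESC. Myeloid marker sums were 364 RPKM in iPSC, 340 RPKM in ESC and 7882 RPKM in MEF. Of 8 tested myeloid markers, 7 of them MEF-high, 2 passed 2-fold upward (Laptm5 and Tyrobp) and 4 downward. The defining genes Lyz2 and C1qb, both among the 4, stood at 0.05 and 0 RPKM in iPSC, against 93.5 and 3.0 RPKM in ESC.

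Lists of other cell types and lineages held mixed counts, beside 7.74% of all tested genes at least 2-fold higher and 14.5% lower. Of 8 tested primitive endoderm genes, 4 were at least 2-fold lower and 0 higher, and 7 of the 8 are MEF-high; Pdgfra had 1.18 RPKM in iPSC, 28.3 RPKM in ESC and 80.8 RPKM in MEF. Of 10 trophoblast genes 2 were higher and 4 lower, and of 9 Hox genes 2 were higher and 3 lower. Hoxc12 had 5.32 RPKM in iPSC and 1.21 RPKM in ESC, and Hoxc8 had 0.14 RPKM in iPSC and 2.4 RPKM in ESC. Of 5 neural progenitor genes 1, Sox21, was higher and 3 were lower. None of 3 muscle genes and 3 endothelial genes tested passed 2-fold. Adm, a hypoxia-induced peptide hormone, had 2.36 RPKM in iPSC, 81.8 RPKM in ESC and 496.5 RPKM in MEF, and led 3 lower genes of 9 in the metallothionein and hypoxia list. Of 23 cholesterol synthesis genes, Mvk was higher and Dhcr7 lower.

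Replication-dependent histone genes, whose transcripts normally lack a poly(A) tail, were low in both libraries. Of 29 tested, 20 were at least 2-fold higher in iPSC and 0 lower, with a median of 1.44. Summed over the list the level was 212 RPKM in iPSC and 132 RPKM in ESC. Hist1h2ai had 4.76 RPKM in iPSC and 0.07 RPKM in ESC, and Hist1h2bk had 17.2 RPKM in iPSC and 6.37 RPKM in ESC. Near-identical copies make single values uncertain. With a pseudocount of 4 RPKM, 3 of the 20 stayed past 2-fold, and after centring on GC content 17 genes were higher and 1 lower.

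Hprt (chrX:52988137-53021659, mm10), the purine salvage enzyme used as a selectable marker in mouse stem cells, had 0.67 RPKM in iPSC and 549 RPKM in ESC. The iPSC level was 0.00122 of the ESC level (counting interval 0.000905 to 0.00161). It was the lowest of the 7 libraries, with 24.2 RPKM in MEF, 516 RPKM in day 6 cells and between 72.1 and 196 RPKM in the NSC libraries. All 9 exon records of Hprt were at or below 2.57 RPKM in iPSC, whereas in ESC they lay between 103 and 2825 RPKM. Of 18697 genes, 25 were at least 4-fold lower in iPSC than in each of the other 6 libraries, and Hprt had the largest gap of the 25.

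In the windows that start at chrX:36000001 and chrX:37000001, 6 of 15 and 4 of 45 tested genes were at least 4-fold lower in iPSC. Among the 6, Il13ra1, is MEF-high, with 1.11 RPKM in iPSC, 9.17 RPKM in ESC and 43.4 RPKM in MEF. Sept6 (chrX:36911326-36991794), a septin of the cytoskeleton, had 2.46 RPKM in iPSC and 315 RPKM in ESC, and at most 30.5 RPKM in the other 5 libraries. Sowahd had 0.11 RPKM in iPSC and 98.0 RPKM in ESC, and at most 1.81 RPKM elsewhere. Ube2a, a ubiquitin-conjugating enzyme, had 58.6 RPKM in iPSC and 630 RPKM in ESC, and Nkrf, a repressor of NF-kB targets, had 12 RPKM in iPSC and 149.5 RPKM in ESC. All 14 exon records of Sept6 were higher in ESC, and the first, which holds the start of the gene, had 1.16 RPKM in iPSC, 1297 RPKM in ESC and 5.85 RPKM in day 6 cells. ESC alone was at least 4-fold above every other library for 123 genes, and iPSC alone for 81, of which 31 have names, Lefty1, Notum, Tcf15 and Zscan4 copies among them.

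**Figure D4:**
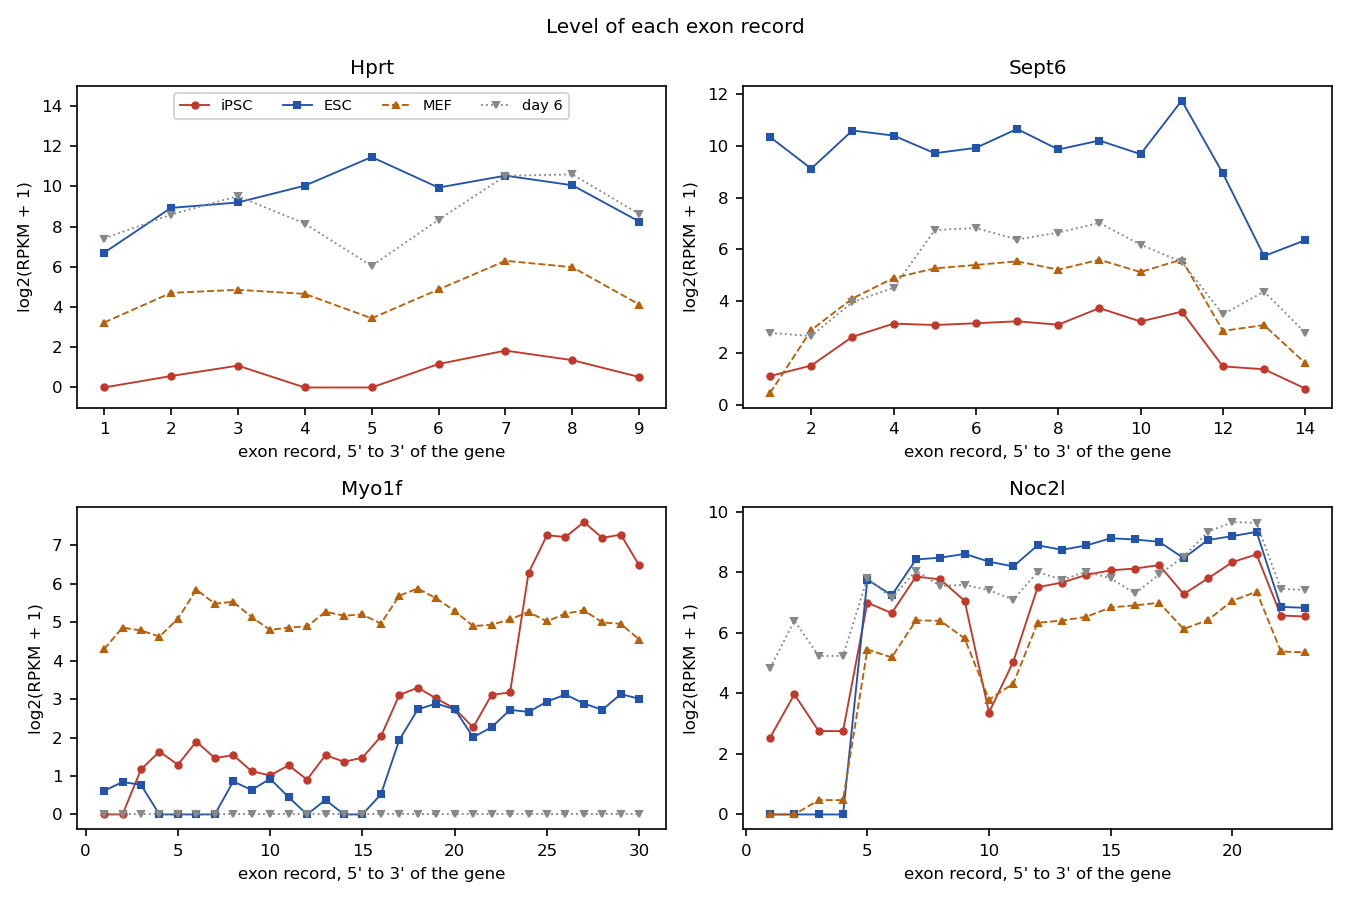
Level of each exon record, as log2(RPKM + 1), in order from the 5′ to the 3′ end of 4 genes, for iPSC, ESC, MEF and day 6 cells (1 library each; records can overlap). Hprt is near 0 along its length in iPSC, Sept6 is high along its length in ESC, the last 7 records of Myo1f rise in iPSC, and records 10 and 11 of Noc2l dip in iPSC and MEF.

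Within genes, exons seldom went in opposite directions. Of 12623 genes with at least 2 usable exons, 45 had an exon at least 4-fold higher and another at least 4-fold lower in iPSC. Noc2l, a histone acetylation inhibitor, had 9.30 RPKM in iPSC, 325 RPKM in ESC and 12.9 RPKM in MEF at its exon record 10, but 14.7 RPKM in iPSC and 0 in ESC and MEF at the short record 2. Ndufs5, a subunit of respiratory complex I, had 3.0 RPKM in iPSC, 141 RPKM in ESC and 12.7 RPKM in MEF at record 5, but 110.3 RPKM in iPSC, 18.5 RPKM in ESC and 103 RPKM in MEF at record 6. Hmgb1, an abundant chromatin protein, had 40.1 RPKM in iPSC, 469 RPKM in ESC and 67.3 RPKM in MEF at record 7, but 438 RPKM in iPSC, 4.40 RPKM in ESC and 118 RPKM in MEF at record 3. At record 10 of Noc2l, record 5 of Ndufs5 and record 7 of Hmgb1, iPSC and MEF, which share a strain label, had the lowest 2 levels of the 7 libraries, whereas at record 6 of Ndufs5 every other library was above ESC. The part of strain or of near-identical copies was not tested.

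Crocc and Synj1, with 11 and 5 exons at least 4-fold higher and 4 and 1 at least 4-fold lower, also held opposing exons, as did Ndufs7, with 5 and 1. The collagen genes Col5a1 and Col11a1 had 35 and 6 lower exons and 2 higher exons each, and their gene levels were lower in iPSC, at 7.02 and 3.76 RPKM against 59.6 and 8.75 RPKM in ESC. Myo1f, an unconventional myosin of leukocytes, showed a change along its length without opposing exons. Its last 7 exon records had between 76.6 and 193 RPKM in iPSC, against at most 7.75 RPKM in ESC, while its earlier records had at most 8.83 RPKM in iPSC. In MEF the same gene was more even, between 18.7 and 57.7 RPKM.

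GC content moved with the ratio. Among genes not high in MEF the 1450 genes with the highest GC content had a median log2 ratio of 0.58, and the 1450 with the lowest had -0.32. Of the highest 1450, 4.97% were at least 4-fold higher in iPSC. Across these 14497 genes Pearson's r between GC content and log2 ratio was 0.298; genes are not independent replicates and share the 2 libraries. Genes higher at 4-fold had a median GC content of 55.3%, those lower 47.8%, and all 49.9%. After centring within bins of GC content, 177 of these genes were higher and 326 lower, and 137 of the 188 and 298 of the 378 kept their call.

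By chromosome, the medians of genes not high in MEF were within a narrow band, with few exceptions. Chromosome 8 had a median of -0.28 over 753 genes and chromosome X of -0.40 over 779 genes, whereas chromosome 15 had 0.11 over 510 genes. Centred on GC content these became -0.20, -0.17 and 0.16, and the other 17 chromosomes lay between -0.05 and 0.08. On chromosome 8, 63.1% of genes were below 0 after centring, on chromosome X 61.1% and on chromosome 15 37.1%.

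**Figure D5:**
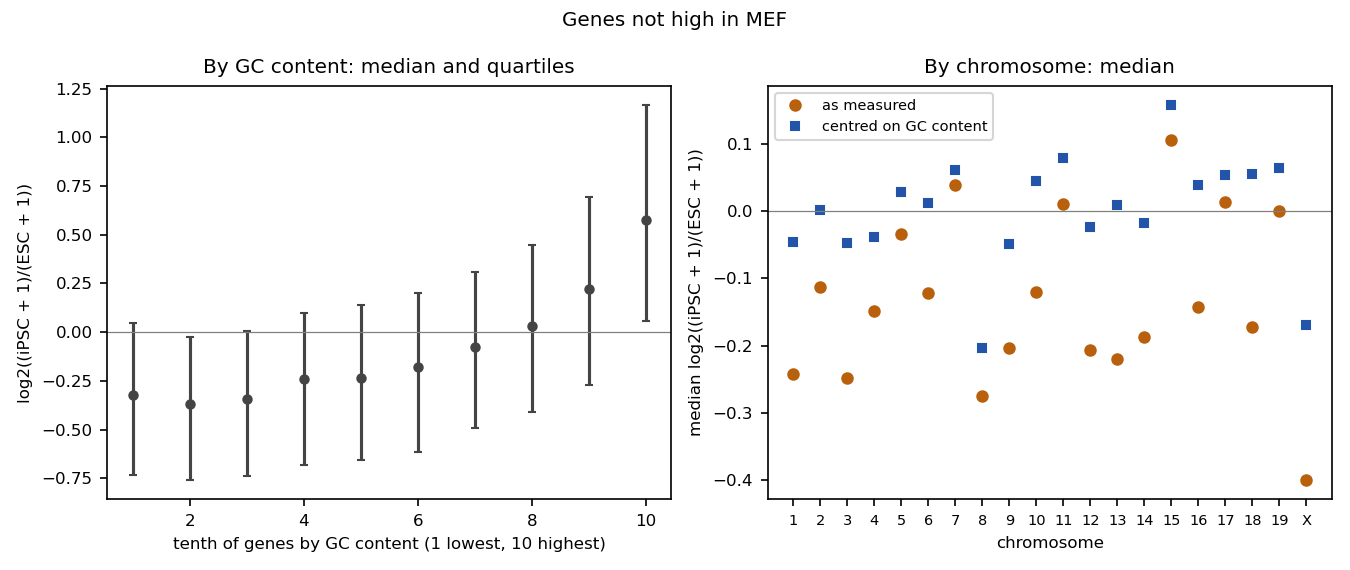
Genes not high in MEF: left, median log2 ratio of iPSC over ESC with quartiles in 10 bins of genes by exon GC content; right, median log2 ratio per chromosome as measured (circles) and centred on GC content (squares). The median rises to 0.58 in the bin of highest GC content, and after centring chromosomes 8 (-0.20) and X (-0.17) lie lowest and chromosome 15 (0.16) highest.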

How the data were processed

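The authors deposited RPKM per Ensembl exon and library. Per the submitters' processing notes, TopHat2 2.0.10, CASAVA 1.8.2, bedtools and Bowtie were used with mm10; per the labels' protocols the kit was TruSeq RNA, which does not mark strand. Of 279252 exons, 270168 (96.7%) matched GENCODE M21 by ID, and a gene's level was the exon-length-weighted mean. Reads per exon were recovered from RPKM steps, with 96.3% to 96.5% of values whole within 0.01 read plus 1e-05 of the value. Levels were compared as log2 with 1 RPKM added, for genes at 2 RPKM or more in iPSC or ESC, and called at 4-fold (lists at 2-fold). The rule was checked on simulated reads. The members and lists were chosen with earlier results of these data known: 37 lists with 695 members, of which 527 were tested, 93 of them at least 2-fold higher and 114 lower. Named genes are the 15 highest and lowest not high in MEF, the 8 highest and lowest MEF-high, up to 4 largest per list, fixed markers, genes of windows with at least 3 calls in 1 direction, and 8 genes with opposing exons; further members were chosen after their values were seen. A few of these are left out of the text. Python 3.11.15 with numpy 2.4.6, pandas 2.3.3, scipy 1.17.1 and matplotlib 3.10.9 was used.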

Additional observations from a re-analysis of the deposited data

How the results depend on the processing

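No paired analysis was possible because each group has 1 library, and no library could be left out. Of 84 recomputed counts 63 stayed within 1.5 times. With a pseudocount of 0.25 RPKM, 359 of all genes were at least 4-fold higher, 30 MEF-high genes were higher and 471 lower, and 329 genes not high in MEF were higher. With a pseudocount of 4 RPKM these sets had 77 higher and 353 lower (all), 5 and 153 (MEF-high) and 72 and 200 (not high), and 58 list members were at least 2-fold higher. With the highest exon of each gene they had 350 higher and 1149 lower, 34 and 500, and 316 and 649. Where MEF-high needed MEF above the larger of iPSC and ESC, 5 such genes were higher and 170 lower. Where it needed a log2 gap of 1, 31 were higher, and where MEF was set against iPSC alone (chosen after seeing the data, like the GC centring), 5 were. Median-of-ratios scaling moved the median of all genes from -0.18 to -0.03. Among named genes with a log2 ratio of at least 1 in either direction, 1 reversed, C2, with 0.19 at its highest exon. Smaller ratios could also change sign, such as that of Crocc, which ranged from -0.59 to 0.99. Of the recomputed ratios, 208 slipped under 4-fold and 32 rose past it. The cause of these moves was not tested. Depth limits genes near the floor: 3 reads on 1 kilobase equal 0.0517 RPKM in iPSC and 0.0732 RPKM in ESC.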
